A study of Ursus arctos with 12 samples.

Results

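The dystrophin-associated protein complex of the muscle fibre membrane was followed across the seasons through 8 genes, taken by their symbols from the table of read counts per gene. These were DMD, UTRN, DTNA, DAG1, SGCA, SGCB, SGCD and SSPN, 8 of the 30249 genes of the table. RNA came from the vastus lateralis, a thigh muscle, of 6 free-ranging brown bears (Ursus arctos) aged 2 to 3 years. Each bear was biopsied in winter, during hibernation, and again in summer, when it was active, which gave 6 winter and 6 summer libraries. The bears were captured and anesthetized for each biopsy, and both biopsies of a bear came from the same year. The comparison asked how the mRNA of these genes differed between the hibernating and the active muscle of the same animals.

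Dystrophin, the product of DMD, is a long rod that ties the actin cytoskeleton beneath the fibre membrane to a group of membrane proteins. Dystroglycan, encoded by DAG1, spans the membrane and binds laminin in the surrounding matrix through sugar chains, while the sarcoglycans and sarcospan form a subcomplex beside it. Dystrobrevin and the syntrophins gather signalling proteins on the inner face. The complex protects the fibre membrane during contraction, and mutations of its genes cause muscular dystrophies. Utrophin (UTRN) is a close relative of dystrophin that in adult fibres sits mainly at the neuromuscular junction and is also made by other cells, among them those of blood vessels.

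Depth ran from 20191068 to 27283155 reads on genes in summer and from 16742406 to 32140160 in winter. The 8 genes together took 0.0720 to 0.101% of the reads of a summer library and 0.0773 to 0.0983% of a winter library. Each gene had at least 560 reads in every library. The summed level of 12 muscle fibre markers, among them CKM, TTN and ACTA1, was 124878 to 215554 CPM (reads scaled to a common library size by edgeR) in summer and 135493 to 181902 in winter, and all 12 had reads in every library. In a principal component analysis the winter library of bear 1509 lay at −98.6 on the second component, where the other winter libraries lay at 6.35 to 23.1, and calls of the complex genes and of the genes of the wider lists that changed without it are given beside their values. A biopsy mixes cell types, so that fewer cells of a type and less mRNA per cell cannot be told apart. Reads were counted per gene, which leaves the shorter products of DMD and the splice forms of DTNA unseparated.

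Of the 8 genes, 2 were higher in winter (SGCA and SGCD) and 1 was lower (DTNA) at an adjusted p below 0.05 in the quasi-likelihood test of edgeR, adjusted by Benjamini-Hochberg over the 17290 genes tested. All further adjusted p values come from that test where no other is given, and SE stands for a standard error derived from its F statistic. Over all genes tested the same limit called 39.5%, with 19.6% higher and 19.9% lower, so the share called among the complex genes was close to that of the transcriptome. With stricter limits, namely an adjusted p under 0.01 together with a ratio of winter to summer over 1.3 or under 0.77, 1 member (DTNA) was called, and 24% of all genes. The median log2 fold change (log2 FC, winter minus summer) of the 8 genes was 0.29, and that of all genes tested was −0.0021. No member had every winter library beyond every summer library, in either direction. Over all genes, 9.12% had winter wholly above summer and 8.21% wholly below. The other 5 members missed the threshold, with log2 FC from −0.24 (UTRN) to 0.36 (DMD).

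**Figure D1:**
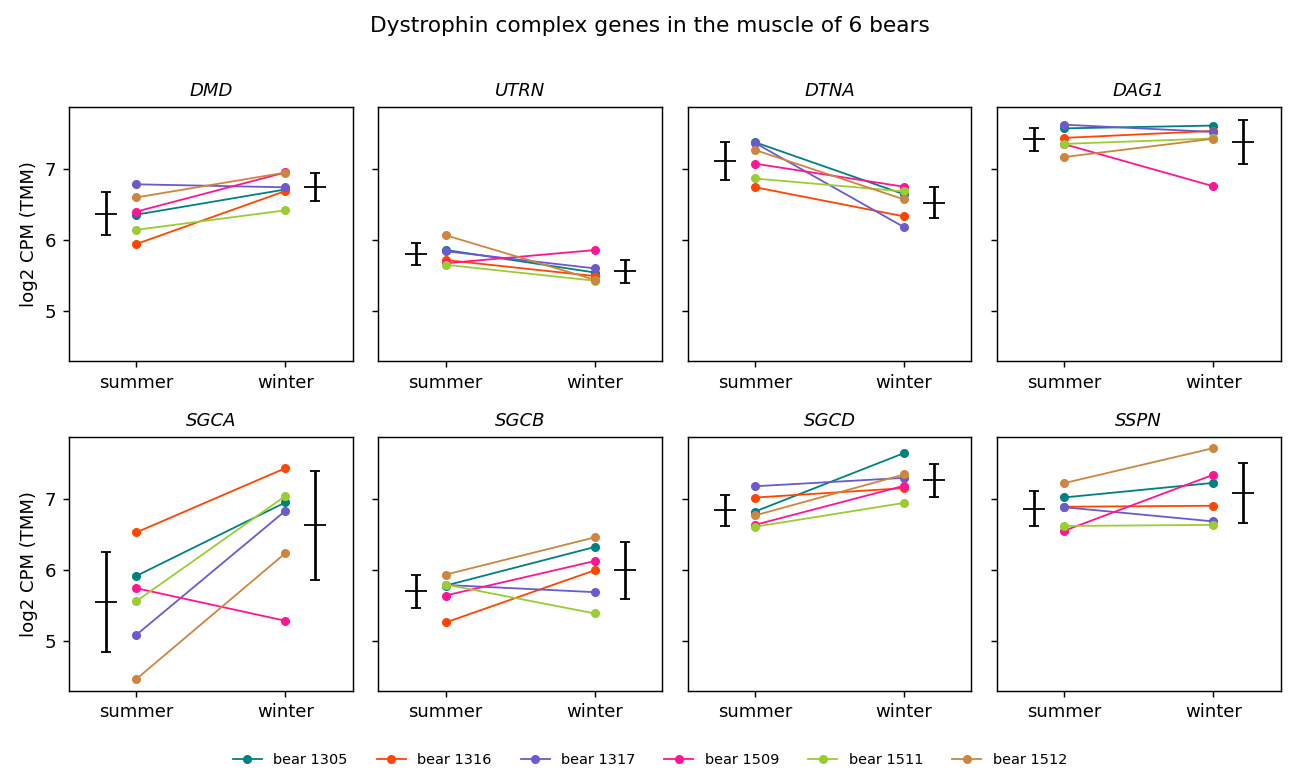
Level of each complex gene as log2 CPM after TMM scaling (vertical axis) in the summer and winter biopsy of each bear, with 1 coloured line per bear and black bars for the mean ± SD of 6 libraries. DTNA declined in 6 of 6 bears and SGCD increased in 6 of 6, while the line of bear 1509 runs against the other 5 bears for SGCA and UTRN.

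DMD and UTRN encode the 2 related proteins that can anchor the complex to actin. DMD lay at 61.6 CPM in the lowest summer library, at a median of 83.3 and at 110.5 in the highest, against 85.7, 106 and 124 CPM in winter. The summer mean was 84.4 ± 17.6 CPM and the winter mean 108 ± 14.4 CPM (SD, n = 6 bears). The ranges overlapped, and 5 of 6 bears had the higher value in winter, with bear 1317 near no difference. Its log2 FC was 0.36 (SE 0.14, adjusted p = 0.0549), which fell just short of the threshold, and the 95% interval of the change ran from 0.06 to 0.66. With the bear as a replicate block in the model, DMD was called higher in winter, at 0.37 (adjusted p = 0.0242). DESeq2 called it too, without the block (adjusted p = 0.0392) and with it (0.00985). So did limma voom (0.0463), the filter of edgeR's filterByExpr (0.0431) and the fit without bear 1317 (0.0292). Over all alternatives the adjusted p ran from 0.00985 to 0.23.

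UTRN was measured at 50.3 to 67.1 CPM in summer (median 55.0) and at 43.0 to 58.1 CPM in winter (median 45.8). It was lower in winter in 5 of 6 bears, and bear 1509 went the other way, from 5.68 to 5.86 log2 CPM. The log2 FC was −0.24 (SE 0.10, adjusted p = 0.0735), with a 95% interval from −0.46 to −0.02. Without bear 1509 UTRN was called lower at −0.32 (adjusted p = 0.0235), and without only the winter library of that bear at −0.31 (adjusted p = 0.0198). The summed level of 8 endothelial markers was 647 to 968 CPM in summer and 439 to 509.9 CPM in winter, and that of 8 smooth muscle and pericyte markers was 531 to 688 and 298 to 368 CPM. Of these lists 5 of 8 and 3 of 8 genes were called lower and 1 endothelial marker was called higher. Of all genes tested, 19.9% were called lower and 19.6% higher. None of the defining markers was at 0 in all libraries. Their part in the level of UTRN was not tested.

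DTNA encodes α-dystrobrevin, which binds dystrophin and utrophin and carries syntrophins. It fell in winter. Its summer levels ran from 107 to 167 CPM with a median of 145, and its winter levels from 72.6 to 108 CPM with a median of 97.7, so that the highest winter library (bear 1509) just reached the lowest summer library (bear 1316). The summer mean was 141 ± 25.3 CPM and the winter mean 93.3 ± 13.7 CPM (SD, n = 6 bears). The log2 FC was −0.60 (SE 0.14, adjusted p = 0.00339), a winter level 0.661 times that of summer. Single bears differed by −1.19 (bear 1317) to −0.18 (bear 1511), below 0 in 6 of 6, as for 19% of all genes tested. It was called under each of the 16 alternatives tried, with values from −0.68 to −0.48 and adjusted p from 0.000279 to 0.0177.

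DAG1, the gene of dystroglycan, was not called. It lay at 144 to 198 CPM in summer (median 169) and at 108 to 196 CPM in winter (median 179), and 4 of 6 bears were higher in winter. The log2 FC was −0.02 (SE 0.13, adjusted p = 0.921), with a 95% interval from −0.31 to 0.27. The winter library of bear 1509, at 6.76 log2 CPM, lay below the other winter libraries, at 7.43 to 7.62, and without it the change was 0.08 (adjusted p = 0.53).

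**Figure D2:**
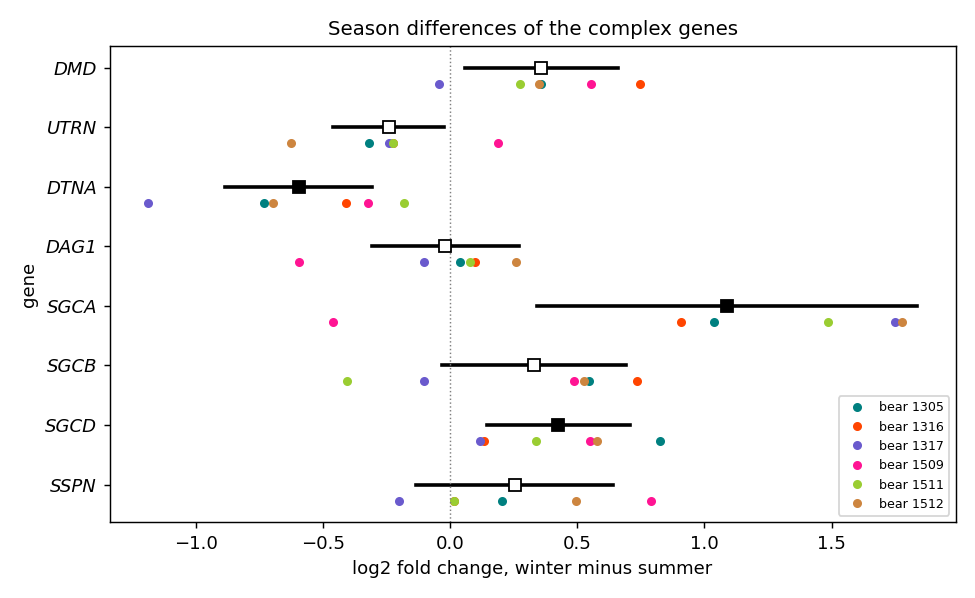
Log2 fold change of each complex gene, winter minus summer (horizontal axis). Squares are the edgeR estimates, filled where the adjusted p was below 0.05, with 95% intervals derived from the F statistic. The coloured points beneath are the differences within single bears. SGCA had the widest interval, from 0.34 to 1.84, and DTNA, SGCA and SGCD have filled squares.

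The sarcoglycans are single-pass membrane proteins that assemble with each other before they reach the membrane. SGCA, whose product α-sarcoglycan is found in striated muscle, rose in winter and had the largest log2 FC of the 8 genes. In summer it ranged from 21.9 CPM (bear 1512) through a median of 50.2 to 92.1 CPM (bear 1316), and in winter from 38.8 CPM (bear 1509) through a median of 119 to 173 CPM (bear 1316). Its summer mean was 51.4 ± 24.2 CPM and its winter mean 109 ± 46.6 CPM (SD, n = 6 bears). The coefficient of variation of SGCA was 47.2% in summer and 42.7% in winter, against 11.3 to 20.9% and 11.8 to 30.1% for the other 7 genes. The winter level was higher in 5 of 6 bears, by 0.91 to 1.78 on the log2 scale, and lower in bear 1509, by −0.46.

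Across all 12 libraries the log2 FC of SGCA was 1.09 (SE 0.35, adjusted p = 0.0234), a winter level 2.13 times that of summer. With the bear as a replicate block the adjusted p was 0.00601. The call was lost when 1 of 3 bears was left out, and the adjusted p was then 0.0636 without bear 1305, 0.0768 without bear 1317 and 0.0718 without bear 1511. Without the winter library of bear 1509 the change was 1.26 (adjusted p = 0.00426).

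SGCD encodes δ-sarcoglycan, which with β-sarcoglycan forms the core of the subcomplex. It rose in winter, in 6 of 6 bears, as did 18.4% of all genes tested. Its levels were 97.3 to 145 CPM in summer (median 111) and 123 to 200.1 CPM in winter (median 151), and the 2 ranges overlapped. The log2 FC was 0.43 (SE 0.13, adjusted p = 0.0189), from 0.12 in bear 1317 to 0.82 in bear 1305. It was no longer called with library totals in place of TMM (adjusted p = 0.0740), without bear 1305 (0.0862) or without bear 1512 (0.0633).

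SGCB, for β-sarcoglycan, did not pass the threshold. Summer levels were 38.2 to 61.0 CPM (median 54.9) and winter levels 41.7 to 87.8 CPM (median 66.6). Winter was higher in 4 of 6 bears and lower in bears 1317 and 1511. The log2 FC was 0.33 (SE 0.17, adjusted p = 0.138), with a 95% interval from −0.03 to 0.69. Without bear 1511 it was called at 0.45 (adjusted p = 0.0459).

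SSPN encodes sarcospan, a small protein that crosses the membrane several times and is held by the sarcoglycans. It ranged from 93.6 to 149 CPM in summer (median 118) and from 99.2 to 210.0 CPM in winter (median 135). The winter spread, 42.3 CPM (SD, n = 6 bears), was wider than the summer spread of 20.5 CPM. Bears 1509 and 1512 rose by 0.79 and 0.49 on the log2 scale, bears 1316 and 1511 differed by 0.01 each, and bear 1317 was lower. The log2 FC was 0.25 (SE 0.18, adjusted p = 0.282), with a 95% interval from −0.13 to 0.64, and no alternative called it.

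Levels of different genes cannot be compared here, since transcript lengths were not used, but the ratio of 2 genes within a library can be followed across seasons and needs no scaling between libraries. The reads of the other 7 genes were therefore divided by those of DMD. UTRN had 0.520 to 0.855 reads per DMD read in summer and 0.350 to 0.502 in winter, and DTNA had 1.50 to 2.03 in summer and 0.677 to 1.20 in winter. Neither pair of ranges overlapped. Among all genes tested, 12.6% had a ratio to DMD that was lower in every winter library than in every summer library. For DAG1 the ratio was 1.48 to 2.82 in summer and 0.874 to 2.02 in winter. These 3 ratios were lower in winter in 6 of 6 bears, as was the ratio to DMD of 33.2% of all genes tested. DMD itself was higher in winter in 5 of 6 bears (log2 FC 0.36), so a lower ratio need not be a fall of the other gene. DAG1 had a log2 FC of −0.02 and was higher in winter in 4 of 6 bears.

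On the log2 scale the ratio to DMD differed between the seasons by −0.62 ± 0.32 for UTRN, −0.96 ± 0.27 for DTNA and −0.41 ± 0.42 for DAG1 (winter minus summer, SD, n = 6 bears). The exact permutation test over sign flips of the 6 pairs, two-sided, gave p = 0.03125 for each, the smallest value that 6 pairs allow, and p = 0.0729 after adjustment over the 7 ratios. At that smallest value, at least 5 of the 7 ratios would have had to reach it for an adjusted p below 0.05. The ratios of SGCB, SGCD and SSPN to DMD differed by −0.08 ± 0.32, 0.05 ± 0.36 and −0.15 ± 0.34 (SD, n = 6 bears; exact permutation p = 0.781, 0.688 and 0.3125), less than the spread between bears. SGCA relative to DMD was higher in 5 of 6 bears, at 0.71 ± 1.02 (SD, n = 6 bears; exact permutation p = 0.156), and its mean was 1.05 without bear 1509 and 0.49 without bear 1317. The mean for DAG1 was −0.26 without bear 1509.

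**Figure D3:**
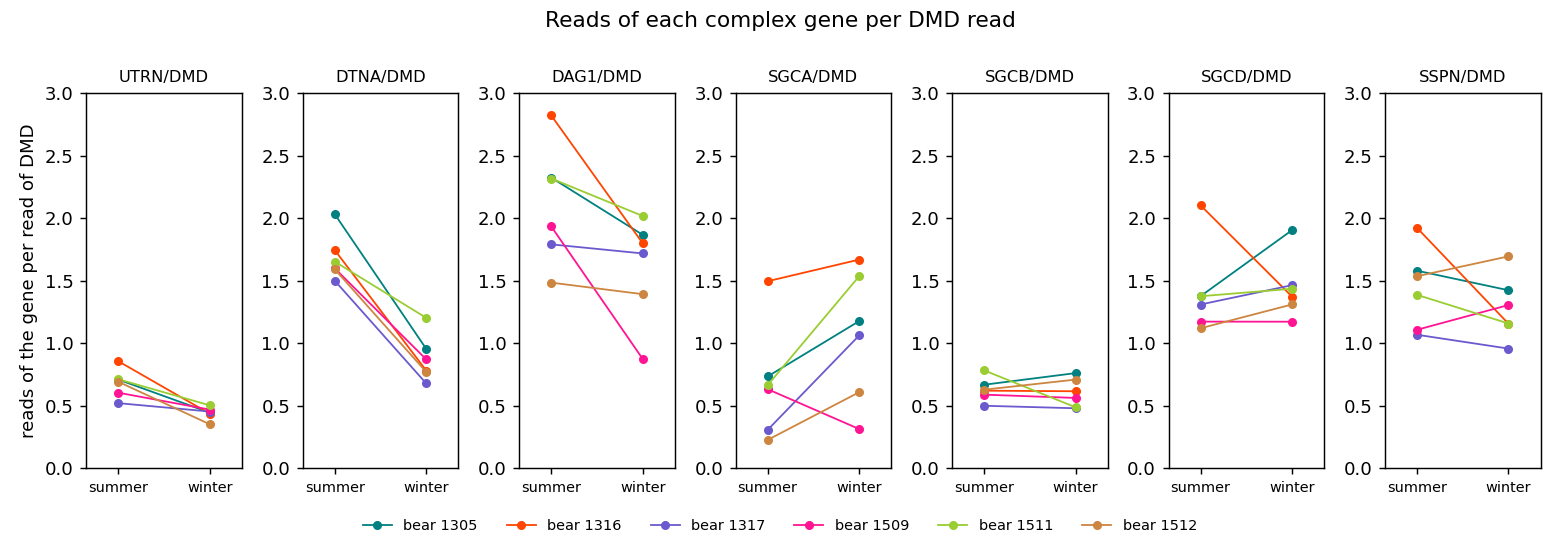
Reads of each complex gene per read of DMD in the same library (vertical axis, linear from 0) in summer and winter, with 1 line per bear; read numbers are not corrected for transcript length. UTRN per DMD read was 0.350 to 0.502 in winter and DTNA 0.677 to 1.20, below their summer values in 6 of 6 bears.

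As a share of the reads of the 8 genes, DTNA went from 17.8 ± 2.14% in summer to 10.6 ± 2.00% in winter, UTRN from 7.10 ± 0.652% to 5.39 ± 0.979%, SGCA from 6.59 ± 3.21% to 12.3 ± 5.29% and SGCD from 14.6 ± 1.57% to 17.4 ± 1.83% (SD, n = 6 bears). The share of DMD was 10.6 ± 1.73% and 12.2 ± 1.78%. These shares sum to the whole in each library, so a rise of one gene lowers the others.

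Beyond the 8 genes, the list of other complex members held SGCE, SGCZ, syntrophins, DTNB and DRP2, 6 of whose 8 genes had enough reads to be tested. Of these 2 were lower in winter and 0 higher in edgeR, against 19.9% lower and 19.6% higher of all genes tested. The number higher was 0 at an unadjusted p below 0.05, 0 in DESeq2 and 0 in limma voom, and the median log2 FC was −0.59. SGCE, for ε-sarcoglycan, which is made in many tissues, fell by 0.79 on the log2 scale (SE 0.19, adjusted p = 0.0056), from 3.57 ± 0.18 to 2.74 ± 0.46 log2 CPM (SD, n = 6 bears), in 6 of 6 bears. SNTB2, a syntrophin, fell by 0.58 (SE 0.20, adjusted p = 0.0311), in 6 of 6 bears, but was not called without bear 1305, 1317, 1511 or 1512 (adjusted p = 0.0782 to 0.103). The list count was 1 without each of these bears. SGCZ and SNTG1 had 4 reads each over the 12 libraries.

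Of 10 tested genes whose products bind the complex at the membrane or tie it to the cytoskeleton, 2 were higher and 1 lower, with a median log2 FC of 0.04. Over all genes tested, 19.6% were higher and 19.9% lower. CAV3, the caveolin of muscle, which binds dystroglycan, rose by 0.81 on the log2 scale (SE 0.18, adjusted p = 0.0032), with mean levels of 7.62 ± 0.29 log2 CPM in summer and 8.41 ± 0.40 log2 CPM in winter (SD, n = 6 bears) and the same direction in 6 of 6 bears. GRB2, an adaptor protein that binds dystroglycan, rose by 0.44 (SE 0.10, adjusted p = 0.00346), and all 6 winter libraries lay above all 6 summer libraries. AQP4, the water channel held at the membrane by syntrophin, fell by 0.95 (SE 0.29, adjusted p = 0.0179) in 6 of 6 bears, but it was not called without bear 1317 (adjusted p = 0.0515). NOS1, the nitric oxide synthase anchored by dystrophin and syntrophin, was at 0.56 (adjusted p = 0.0643), and ANK3, which binds dystrophin, at −0.39 (adjusted p = 0.055). NOS1 was called higher in DESeq2 (adjusted p = 0.0426), in DESeq2 with the block (0.0412), without bear 1317 (0.0388), without bear 1509 (0.0247) and without only the winter library of that bear (0.0237), which raised the number higher from 2 to 3. The replicate block called ANK3 lower (adjusted p = 0.0405), which raised the number lower from 1 to 2, and so did DESeq2 with and without the block, limma voom and the fits that left out bear 1509 (adjusted p = 0.0126) or only its winter library (0.00936). NOS1 and ANK3 were named after their values were seen, as were DES and SYNM. DES and SYNM, of the intermediate filaments, were at 0.13 and −0.04 and were not called.

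The sugar chain through which dystroglycan binds laminin is built by a series of enzymes. Of 15 such genes tested, 4 were lower and 1 higher in winter, against 19.9% and 19.6% of all genes, and the median log2 FC was −0.15. GMPPB, which makes GDP-mannose, fell by 1.16 on the log2 scale (SE 0.22, adjusted p = 0.00103), from 2.04 ± 0.27 to 0.89 ± 0.43 log2 CPM (SD, n = 6 bears). POMT2, a subunit of the enzyme that attaches the first mannose, fell by 0.74 (SE 0.15, adjusted p = 0.00161). The others that fell were B3GALNT2 and POMK, and these 4 genes were lower in 6 of 6 bears. DPM2, a subunit of dolichol-phosphate-mannose synthase, rose by 0.82 (SE 0.22, adjusted p = 0.00897) in 5 of 6 bears. DPM1, another subunit, was at 0.25 (SE 0.10, adjusted p = 0.0528) and was named after its values were seen. It was called higher in DESeq2 without the block (adjusted p = 0.0283), with RLE size factors (0.047), with filterByExpr (0.041) and without bear 1316 (0.0291), which raised the number higher from 1 to 2.

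Of the 11 tested genes of matrix proteins that bind dystroglycan or the sarcoglycans, 7 fell, against 19.9% of all genes, and 0 rose in edgeR, with 0 higher at an unadjusted p below 0.05, 0 in DESeq2 and 0 in limma voom, and the median log2 FC was −0.97. LAMB1, a laminin chain, fell by 1.38 (SE 0.15, adjusted p = 2.1e-05), with mean levels of 6.70 ± 0.28 log2 CPM in summer and 5.33 ± 0.26 log2 CPM in winter (SD, n = 6 bears). LAMA4, the laminin chain of vessel basement membranes, fell by 1.58 (SE 0.18, adjusted p = 3.47e-05). LAMA2, the α chain of the laminin around muscle fibres, was named after its values were seen. It was at −0.46 (SE 0.17, adjusted p = 0.0409), lower in 5 of 6 bears. Its call was lost without bear 1305 (adjusted p = 0.0915), without bear 1317 (−0.30, adjusted p = 0.17), without bear 1509 (0.0517), without bear 1512 (0.119) and without only the winter library of bear 1509 (0.0609), which left 6 ligands lower.

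Of 8 fibroblast markers 5 were called lower and 0 higher in edgeR, against 19.9% lower and 19.6% higher of all genes tested. At an unadjusted p below 0.05 the number higher was also 0. Their summed level was 4393 to 11706 CPM in summer and 315 to 2075 CPM in winter, and none was at 0 in any library. The sum was weighted to the collagens COL1A1, COL1A2 and COL3A1, which had the highest summer levels and log2 FC of −4.59, −3.74 and −4.17. LUM and THY1 were called lower at −1.93 and −1.57. PDGFRA, DCN and FBN1 were not called, at −0.49, −0.75 and −1.39 (adjusted p = 0.0772, 0.0848 and 0.0606). The part of fibroblasts and vessel cells in the ligand result was not tested.

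**Figure D4:**
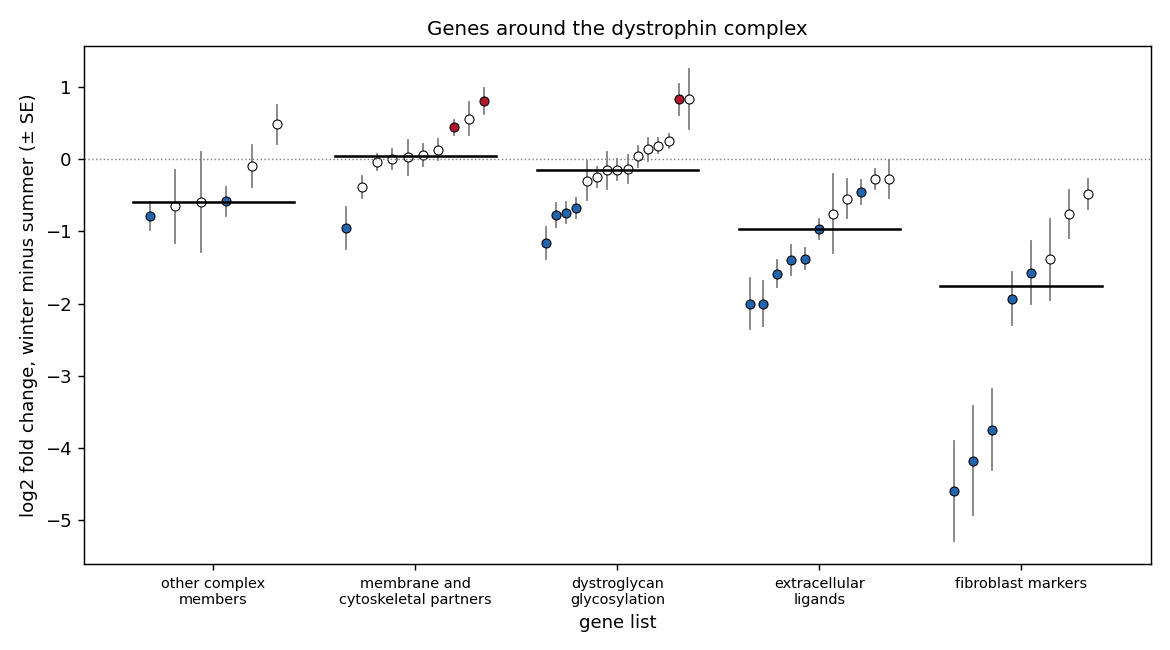
Log2 fold change, winter minus summer (vertical axis), of each tested gene in 4 lists around the complex and in the fibroblast markers; grey bars are standard errors, black lines list medians, red points genes called higher, blue points genes called lower and white points genes not called. The ligand list has its median at −0.97 and 7 blue points of 11, while the partner list has its median at 0.04.

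The genes whose log2 CPM over the 12 libraries was most like that of each member, by Pearson correlation among 10344 genes, were taken as a description. The libraries share bears and seasons, so the 12 points are not independent. Season was left in, so genes chosen as most like a member that fell or rose tend to move with it. Their own season changes are therefore no separate result. For DMD they were HAUS6 (r = 0.951), KMT2A (0.937) and CHD6 (0.937). For UTRN they were MAPK1IP1L (r = 0.935), IRF2 (0.93) and CCDC50 (0.93). DTNA was most like HSPD1 (r = 0.953), the mitochondrial chaperonin, GFM1 (0.942), a mitochondrial translation factor, and NMT1 (0.939). HSPD1, GFM1 and NMT1 fell by 0.68, 0.80 and 0.33 on the log2 scale (adjusted p = 0.000506, 0.00117 and 0.0348).

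SGCA was most like RBM42 (r = 0.967), PLXNB3 (0.96) and COASY (0.957). PLXNB3 rose by 0.59 (adjusted p = 0.0493) and COASY by 0.62 (adjusted p = 0.0087), while RBM42 was not called, at 0.40 (adjusted p = 0.0789). SGCB went with MAGT1 (r = 0.927), ZNF207 (0.918) and TOGARAM1 (0.916). SGCD went with ADIPOR1 (r = 0.946), an adiponectin receptor, ARNT (0.917) and PARP6 (0.894). SSPN went with SLC35A1 (r = 0.95), GLMN (0.93) and UBE3A (0.925), and DAG1 with STIM1 (r = 0.907), the calcium sensor of the sarcoplasmic reticulum, TOM1 (0.899) and FPGS (0.889). No member appeared among the 3 closest genes of another member.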

How the data were processed

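Poly-A RNA of 12 muscle biopsies, both seasons of 6 bears, was sequenced by the authors as stranded libraries with single reads of 50 bases on 2 lanes of 6 libraries, which the labels do not assign to samples. They aligned reads with TopHat 2.1.1 to the brown bear assembly ASM358476v1, discarded alignments with more than 3 mismatches and counted reads per gene on the opposite strand with featureCounts 1.6.2. The deposited values are these counts, not normalized, with 0 blank gene names and 0 columns of other samples.

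Genes under 30 reads over the 12 libraries (12959 of 30249) were dropped. After TMM scaling season alone was modelled by glmQLFit and glmQLFTest (R 4.3.3, edgeR 4.0.16), and adjusted by Benjamini-Hochberg. The main calls, standard errors and p values therefore do not use the pairing by bear. The study states no design formula, so the bear entered as a block only in alternatives. Log2 CPM used a prior count of 2, and ratios to DMD added 0.5 to each count. Genes were called at an adjusted p below 0.05. The alternatives were the bear as a replicate block, DESeq2 1.42.0 with and without it, limma voom (limma 3.58.1), RLE size factors, library totals, other filters, a stricter call and each bear left out. Leaving out only the winter library of bear 1509 was added after seeing the data.

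The members and lists were chosen with earlier results of these data known. The named genes were the 8 members, the 2 genes with the lowest adjusted p in each direction in each of 4 lists, and the 3 genes most correlated with each member, and others named were chosen after their values were seen. PLEC was not used here, and some genes of the lists are not reported here. No sequences or coordinates of the build used are given.

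By the methods the same bears were sampled in both seasons, which is where the pairing comes from. After the season means were subtracted, the 2 libraries of the same animal had correlations of 0.0903 (bear 1509) to 0.344. Libraries of different animals had a median of −0.0634 and a maximum of 0.142, above the value of bear 1509. The summer library most like a winter library was that of the same bear in 5 of 6 cases. The lowest chi-square per gene between libraries of a season was 42.3, so none is a copy. In a simulation over 17290 genes, 200 well-counted genes were changed 2-fold or 4-fold, and the 2 libraries of a bear were not linked. There edgeR found 72% of 2-fold changes and 96% of 4-fold changes, and 7.18% of its calls were false. The real comparison called 39.5% of genes, and changes below 2-fold were not simulated, so these rates need not hold for it.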

Additional observations from a re-analysis of the deposited data

Results flagged for a closer look

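The levels of the 8 genes and their ratios to DMD were examined in each season, 30 groups of 6 libraries, and a library was singled out where its gap to the nearest other library exceeded 0.625 of the range of the 6. Chance alone marks about 1 group in 20, and 2 were marked. DAG1 in the winter library of bear 1509 was at 6.76 log2 CPM, with the other 5 winter libraries at 7.43 to 7.62. The log2 ratio of SGCD to DMD in the summer library of bear 1316 was 1.07, with the other 5 summer libraries at 0.16 to 0.46.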

How the results depend on the processing

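With library totals in place of TMM, 1 member was higher. A stricter call, an adjusted p below 0.01 with a fold change above 1.3 or below 0.77, left 4154 genes, 2077 higher and 2077 lower, with 0 members higher, 1 of the other complex members lower and 0 partners lower. The partners called lower numbered 2 with the bear as a replicate block, 2 in DESeq2, 2 in DESeq2 with the block and 2 in limma voom. Leaving out a bear, or the winter library of bear 1509, gave 0 to 2 members higher, the lowest without bear 1305, and 1 to 2 lower, 1 to 2 other complex members lower, 0 to 2 partners lower, 2 to 3 partners higher, 6 to 7 ligands lower and 1 to 2 glycosylation genes higher. The glycosylation genes called higher numbered 2 in DESeq2, 2 with RLE size factors, 2 with filterByExpr and 2 without bear 1316. The log2 fold change of DAG1 lay between −0.067 and 0.082 with a bear or that library left out. It was above 0 without bear 1317 (0.00088), without bear 1509 (0.077) and without the winter library of that bear (0.082), and DAG1 was called in none. Of the genes of the 5 lists, the replicate block in edgeR changed the calls of DMD and ANK3 and no other. No ratio was called with 0.5 added to each count, and none with 2 added. At these read numbers the change could hardly move a ratio. With a bear left out, the mean ratio of SGCB to DMD ran from −0.13 to 0.05 and that of SGCD from −0.03 to 0.18, on both sides of 0. The ratios, left out bear by bear, are values with no test, since 5 pairs cannot reach p below 0.05. Each member had at least 560 reads in every library. The cause of these changes was not tested.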

Other observations

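Of the 12 muscle fibre markers used to check the tissue, 2 were called higher in winter, 4 lower and 6 were not called, against 19.6% higher and 19.9% lower over all genes. TTN and NEB, which encode the giant proteins titin and nebulin, were higher in winter by 0.65 (adjusted p = 0.0036) and 0.53 (adjusted p = 0.00805), in 6 of 6 bears each. TCAP, MB, PYGM and ACTA1 were lower. These genes were chosen after their values were seen. Of 8 macrophage markers 5 were called lower in winter, with a summed level of 90.1 to 138 CPM in summer and 40.2 to 77.7 CPM in winter. Of 6 satellite cell markers 3 were lower, of 6 adipocyte markers 1 was lower and 1 higher, and of 8 Schwann cell markers 1 was lower. The summed levels of these 3 lists overlapped between the seasons. The adipocyte marker called higher was LEP, with 0 to 19 reads per library and a higher winter level in 4 of 6 bears. CALCR, among the satellite cell markers called lower, had 0 to 8 reads per library.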
